A study of Rattus norvegicus with 9 samples.

Results

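The CC chemokine ligands described here are 10 genes, Ccl2, Ccl3, Ccl4, Ccl5, Ccl7, Ccl11, Ccl17, Ccl19, Ccl20 and Ccl22, taken by gene symbol from the 32883 genes of the deposited tables. All 10 were found, each once. RNA was sequenced from cultured fibroblasts of male wild-type Lewis rats aged 10 weeks, in 3 types with 3 libraries each. Fb-Epn came from the epineurium, the outer sheath of the sciatic nerve. Fb-Par came from the parenchyma, the nerve tissue inside that sheath, and both nerve types came from the same 2 rats. The source of Fb-Skn was the skin of the abdomen of 1 further rat. No type carried a transgene, injury or added agent, and all 3 had been passaged once in medium with serum. The cells had been freed from the tissue by enzymes and pipetting. The paper regards cultures prepared in this way as nearer to injury than to a steady state. The 3 libraries of a type cannot be 3 separate rats, and the sources used here do not state whether they were separate cultures, so p-values measure the spread between these samples, which may be technical. Nerve and skin also differ in rat and body site, which cannot be told apart from the tissue.

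CC chemokines are small secreted proteins with a pair of adjacent cysteines near the start of the mature chain. They bind G protein-coupled receptors on leukocytes and guide these cells along a concentration gradient, and they are also held on the glycosaminoglycans of the matrix. Fibroblasts make some of them at rest and far more after interleukin, tumour necrosis factor or Toll-like receptor signals, largely through the transcription factors NF-kappaB and AP-1. In the injured nerve, Ccl2 is known for drawing in blood monocytes.

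Promoter sequences are shown for Ccl7, the most abundant member in Fb-Epn, and for Ccl20, which was near 0 in 1 type and well expressed in the other two. RefSeq promoters of the rat assembly GRCr8 were matched by symbol for 5 of the 10 members, Ccl7, Ccl17, Ccl19, Ccl20 and Ccl22. The 250 bases before the transcription start are printed 5′ to 3′ along the gene, and capitals mark matches to 3 motifs searched on both strands. These were the NF-kappaB consensus, the AP-1 motif TGANTCA and the TATA box TATAAA. The Ccl7 stretch is chr10:67513845-67514094 on the plus strand, and the Ccl20 stretch is chr9:91836909-91837158 on the plus strand.
Ccl7: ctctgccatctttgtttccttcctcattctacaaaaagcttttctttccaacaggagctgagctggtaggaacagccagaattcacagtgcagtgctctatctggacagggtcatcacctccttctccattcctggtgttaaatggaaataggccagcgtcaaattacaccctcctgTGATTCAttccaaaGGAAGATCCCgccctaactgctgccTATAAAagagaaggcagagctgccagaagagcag
Ccl20: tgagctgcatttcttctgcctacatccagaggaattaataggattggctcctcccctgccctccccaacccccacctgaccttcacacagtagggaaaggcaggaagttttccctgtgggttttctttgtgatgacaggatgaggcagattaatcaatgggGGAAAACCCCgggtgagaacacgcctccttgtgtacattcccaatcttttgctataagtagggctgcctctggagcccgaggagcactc

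The Ccl7 promoter held 1 match to each of the 3 motifs, and no match overlapped another. The TATA box lay 34 to 29 bases before the start. The NF-kappaB match GGAAGATCCC, on the opposite strand, lay 59 to 50 bases before the start, and the AP-1 match TGATTCA lay 73 to 67 bases before it. The Ccl20 promoter held 1 NF-kappaB match, GGAAAACCCC, at 89 to 80 bases before the start, also on the opposite strand, and neither of the other motifs. Of the 33469 promoters in the table, 6.33% held the NF-kappaB consensus, 6.34% the AP-1 motif and 12.9% the TATA box in the same 250 bases. The Ccl17, Ccl19 and Ccl22 promoters held none of the 3, which says only that these letters are absent from this window. GC content ran from 44.4% (Ccl17) to 52.4% (Ccl22) among the 5 promoters, with a median of 51.2% over all promoters.

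Values below are deposited counts of reads per gene and TPM, which divide the counts by gene length and library size so that genes can be set side by side. Total counts ran from 10084584 to 12310506 per library. Fibroblast markers summed to 38780 to 38991 TPM in Fb-Epn, 31093 to 32089 in Fb-Par and 38908 to 40019 in Fb-Skn, with none of the 7 markers found at 0. The macrophage and pan-leukocyte list, of which 15 of 16 genes were found, summed to 1490 to 1576 TPM in Fb-Epn, 299 to 328 in Fb-Par and 103 to 106 in Fb-Skn, with no marker at 0 counts in any type. Its genes include Ptprc (5.80, 1.44 and 0.361 mean TPM in the 3 types in that order), Cd68 (153, 27.8 and 7.87) and Lyz2 (957, 178 and 60.6). In Fb-Epn against Fb-Par, 15 of its 15 tested genes were higher, and in Fb-Epn against Fb-Skn 14 of 15 were. The shares over all tested genes were 20.2% and 23.0%. Cd163 entered the test only through its level in Fb-Epn. Dendritic cell markers summed to at most 14.7 TPM in Fb-Epn, to 5.57 to 7.19 in Fb-Par and to 0.558 to 0.723 in Fb-Skn, with Flt3 at 0 in every library. Xcr1 and Clec9a were also at 0 in Fb-Epn, where the sum came from Itgax and Cd83 alone. Endothelial markers summed to 10.95 to 11.23 TPM in Fb-Epn, 9.77 to 10.94 in Fb-Par and 1.00 to 1.56 in Fb-Skn. Single genes of that list differed in direction. Tek was at 8.37, 10.15 and 1.20 mean TPM in the 3 types. Cdh5 had 35, 41 and 37 counts in Fb-Epn, 3, 2 and 1 in Fb-Par and 0 in each Fb-Skn library. Other lists were at most 3.60 (T and B cell, Cd3e and Ms4a1 at 0), 3.27 (mast cell, Cpa3, Ms4a2 and Fcer1a at 0), 4.65 (keratinocyte) and 0.754 (adipocyte). The T and B cell maximum was Cd2 alone in an Fb-Skn library, and Cd2 had 0 counts in both nerve types. The mast cell maximum was Kit alone in an Fb-Par library. Schwann cell markers reached 182 to 195 TPM in Fb-Epn, 250 to 255 in Fb-Par and 10.5 to 13.2 in Fb-Skn, where Erbb3 and Sox10 were at 0. In such bulk samples, fewer cells of a type and less RNA per cell cannot be told apart. The summed macrophage and pan-leukocyte markers moved with the summed CC ligands in both comparisons of Fb-Epn, as did Itgax and Cd83 of the dendritic cell list. The part of such cells in the results below was not tested.

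**Figure D1:**
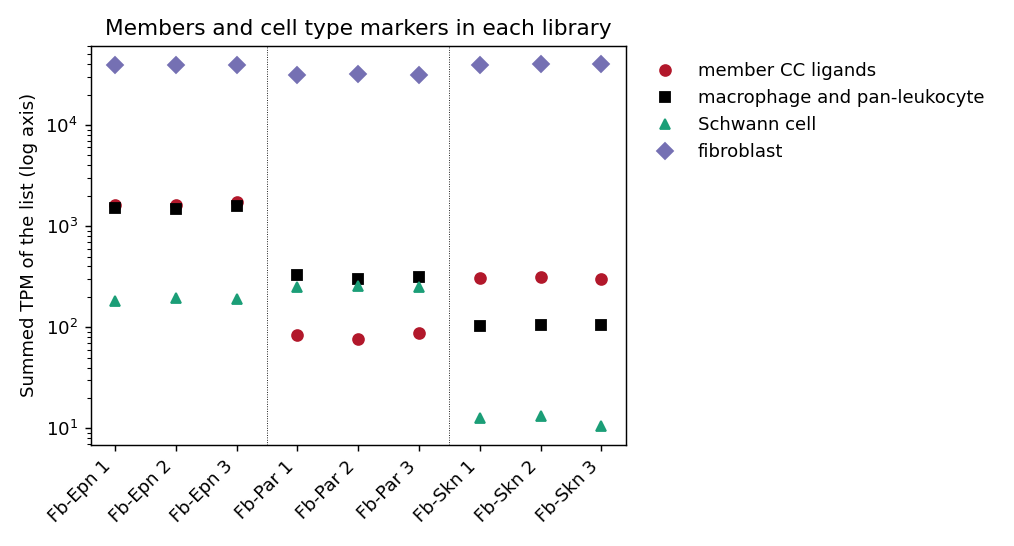
Summed TPM (log axis) of the 10 CC ligand genes and of 3 marker lists in each of the 9 libraries, grouped by type. The CC ligands ran at 1626 to 1721 in Fb-Epn, 77.3 to 87.2 in Fb-Par and 301 to 314 in Fb-Skn, whereas the leukocyte markers were lower in Fb-Skn than in Fb-Par.

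As a sum, the CC ligands were highest in the epineurial fibroblasts and lowest in the parenchymal ones. Summed over the 10 genes, the level was 1661 ± 52.2 TPM in Fb-Epn, 82.6 ± 4.99 TPM in Fb-Par and 308 ± 6.56 TPM in Fb-Skn (SD, n = 3 each). The mean in Fb-Epn was 20.1 times that in Fb-Par and 5.38 times that in Fb-Skn. For the macrophage and pan-leukocyte list, the same ratios were 4.88 and 14.6, so the order of Fb-Par and Fb-Skn was opposite for the 2 sums. Single members differed in this. Mean TPM of Ccl2, Ccl7, Ccl11 and Ccl20 had the order of the ligand sum. Ccl4 had that of the marker sum, at 9.88, 2.39 and 0.551, though its Fb-Par and Fb-Skn libraries overlapped.

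**Figure D2:**
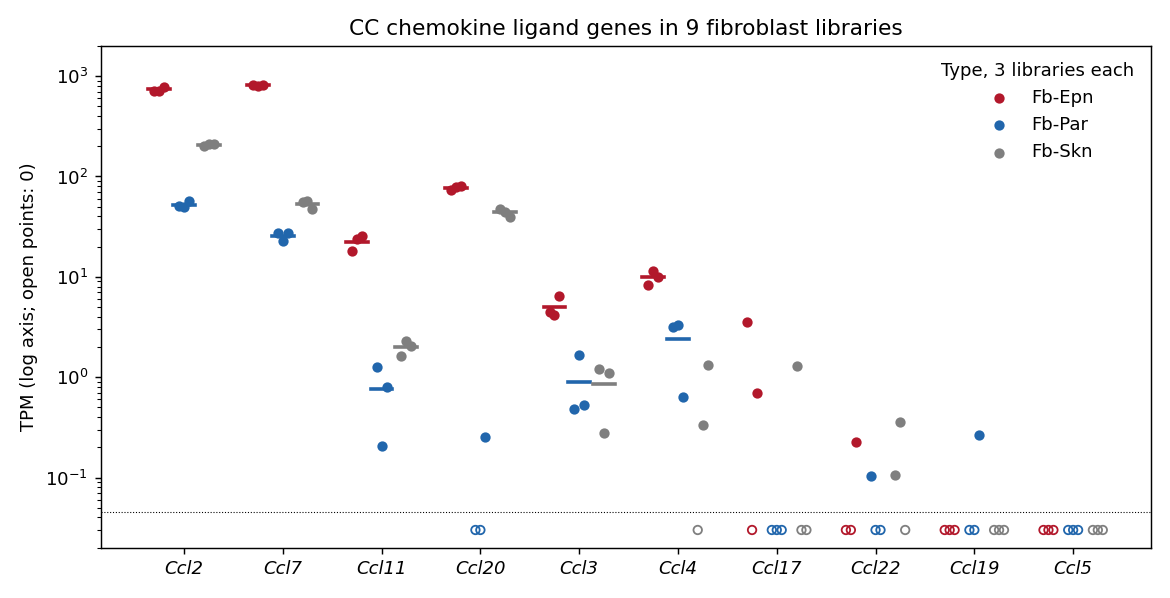
TPM (log axis) of the 10 genes in each library, with points for libraries, a short line for the mean of a type where all 3 of its libraries were above 0, and open points under the dotted line for libraries at 0. Ccl2 and Ccl7 stand above the other genes in every library, and Ccl20 is near 0 in Fb-Par only.

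Ccl2 encodes the main ligand of the receptor Ccr2 on monocytes. The gene (ENSRNOG00000007159) lies at chr10:69412017-69413870 on the plus strand of rn6, the build of the deposited files. Ccl2 counts were 3005, 3385 and 3314 in Fb-Epn, 234, 196 and 238 in Fb-Par, and 924, 834 and 840 in Fb-Skn. In TPM these were 716, 714 and 781, then 51.1, 49.5 and 57.1, then 203, 210 and 210. The 3 types did not overlap, with Fb-Skn between the nerve types. The log2 fold change of Ccl2 was 3.82 (SE 0.058) in Fb-Epn against Fb-Par, 1.69 (SE 0.050) in Fb-Epn against Fb-Skn, and -2.13 (SE 0.061) in Fb-Par against Fb-Skn. The adjusted p of edgeR's quasi-likelihood test was 6.6e-16, 8.1e-13 and 5.3e-13.

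Ccl7 encodes a monocyte attractant that binds Ccr1, Ccr2 and Ccr3. Its gene (ENSRNOG00000000239) follows Ccl2 at chr10:69423086-69424979 on the plus strand. Ccl7 counts were 3467, 3830 and 3534 in Fb-Epn, 127, 91 and 117 in Fb-Par, and 256, 229 and 194 in Fb-Skn. The TPM of Ccl7 were 812, 794 and 818, then 27.2, 22.6 and 27.6, then 55.3, 56.6 and 47.6. Every Fb-Epn library was more than 10 times above every other library, and Fb-Par and Fb-Skn were also separate. The log2 fold change of Ccl7 was 4.97 (SE 0.073; adjusted p = 4.3e-16, edgeR) in Fb-Epn against Fb-Par. Against Fb-Skn it was 3.78 (SE 0.066; adjusted p = 2.7e-15, edgeR), and in Fb-Par against Fb-Skn it was -1.19 (SE 0.089; adjusted p = 3.3e-08, edgeR).

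The balance of these 2 genes also differed between the types. Ccl7 over Ccl2 in TPM was 1.10 ± 0.0416 in Fb-Epn against 0.491 ± 0.0391 in Fb-Par and 0.256 ± 0.0254 in Fb-Skn (SD, n = 3 each). Ccl2 made up 44.4% ± 0.896 of the summed CC ligand TPM in Fb-Epn against 63.6% ± 2.13 in Fb-Par and 67.3% ± 2.13 in Fb-Skn. Shares of Ccl7 were 48.6% ± 1.06, 31.2% ± 1.79 and 17.2% ± 1.22 in the same order. Ccl7 was thus the most abundant CC ligand only in Fb-Epn, where it exceeded Ccl2 in 3 of 3 libraries, and Ccl2 was the most abundant in the other types.

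**Figure D3:**
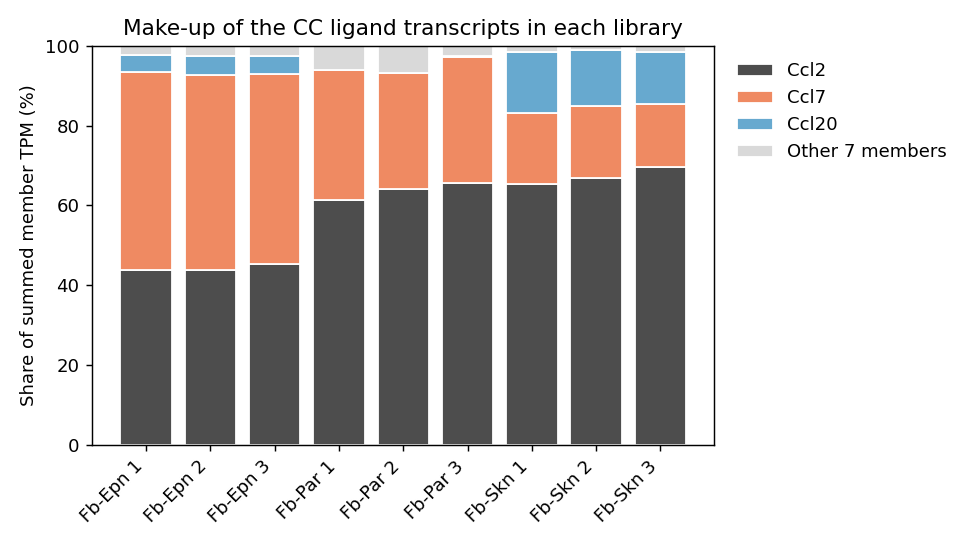
Share of the summed TPM of the 10 genes (%) taken by Ccl2, Ccl7, Ccl20 and the other 7 genes in each library, as stacked bars from 0 to 100. Ccl7 takes 48.6% on average in Fb-Epn against 17.2% in Fb-Skn, and Ccl20 takes 14.2% in Fb-Skn against 0.0973% in Fb-Par.

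Ccl20 encodes the ligand of Ccr6 on immature dendritic cells and subsets of T and B cells. The gene (ENSRNOG00000015992) stands apart from the chemokine clusters at chr9:88918433-88921001 on the plus strand. Ccl20 counts were 288, 351 and 318 in Fb-Epn, 0, 0 and 1 in Fb-Par, and 205, 165 and 149 in Fb-Skn. Its TPM were 72.9, 78.6 and 79.5 in Fb-Epn, 0, 0 and 0.255 in Fb-Par, and 47.8, 44.1 and 39.5 in Fb-Skn. Ccl20 was the only member with 149 or more counts in each library of 2 types and at most 1 count in each library of the third. Per unit of library size, the counts of Fb-Epn were 930 times those of Fb-Par (95% interval 166 to 36758, exact, counting error only), and those of Fb-Skn were 585 times those of Fb-Par (104 to 23137). The fitted log2 fold changes of 9.39 (SE 0.30; adjusted p = 1.9e-12, edgeR) and -8.72 (SE 0.32; adjusted p = 8e-12, edgeR, Fb-Par against Fb-Skn) rest on that single count and on edgeR's prior count. Fb-Epn exceeded Fb-Skn in Ccl20 by a log2 fold change of 0.67 (SE 0.12; adjusted p = 0.00027, edgeR), with no overlap of libraries. That call was lost with limma on log2(TPM + 0.1), at an adjusted p of 0.12 and a difference of 0.82. The share of Ccl20 in the summed CC ligand TPM was 4.63% ± 0.190 in Fb-Epn and 14.2% ± 1.16 in Fb-Skn.

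Ccl11, eotaxin, encodes an attractant of eosinophils that acts through Ccr3. Its gene (ENSRNOG00000007335) follows Ccl7 at chr10:69434941-69439575 on the plus strand. Ccl11 counts were 92, 136 and 130 in Fb-Epn, 7, 1 and 4 in Fb-Par, and 9, 11 and 10 in Fb-Skn. Only the Fb-Epn libraries all reached the level edgeR's filter asks for, 0.917 CPM (counts scaled to library size), so Ccl11 entered the test through the type in which it was high. Its TPM were 18.1, 23.7 and 25.3, then 1.26, 0.209 and 0.793, then 1.63, 2.29 and 2.06. The log2 fold change of Ccl11 was 4.82 (SE 0.34; adjusted p = 2.1e-08, edgeR) against Fb-Par and 3.34 (SE 0.30; adjusted p = 2.3e-07, edgeR) against Fb-Skn. In Fb-Par against Fb-Skn it was -1.47 (SE 0.45; adjusted p = 0.012, edgeR), just short of the threshold of 0.01, and without Fb-Par replicate 1 it was -2.06 with an adjusted p of 0.0044. With all genes of at least 1 count in the fit, the adjusted p was 0.0048.

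Ccl3 and Ccl4 encode the macrophage inflammatory proteins, which attract monocytes, macrophages and T cells, and Ccl3 binds Ccr1. They lie near each other in a second cluster on chromosome 10, Ccl3 (ENSRNOG00000011205) at chr10:70869513-70871066 on the minus strand and Ccl4 (ENSRNOG00000011406) at chr10:70884531-70886355 on the plus strand. Both were scarce. Ccl3 counts were 17, 18 and 25 in Fb-Epn, 2, 6 and 2 in Fb-Par, and 5, 1 and 4 in Fb-Skn. Ccl4 counts were 26, 41 and 32 in Fb-Epn, 11, 10 and 2 in Fb-Par, and 0, 1 and 4 in Fb-Skn. The Fb-Epn libraries lay above all others for both genes, Fb-Par and Fb-Skn overlapped for both, and both genes passed the filter through Fb-Epn. In TPM, Ccl3 was at 5.05 ± 1.26 in Fb-Epn against 0.894 ± 0.673 in Fb-Par and 0.864 ± 0.511 in Fb-Skn (SD, n = 3 each). Ccl4 was at 9.88 ± 1.62, 2.39 ± 1.52 and 0.551 ± 0.687 TPM in the same order.

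The log2 fold change of Ccl3 was 2.49 (SE 0.53; adjusted p = 0.0012, edgeR) against Fb-Par and 2.34 (SE 0.53; adjusted p = 0.0017, edgeR) against Fb-Skn. That of Ccl4 was 2.04 (SE 0.50; adjusted p = 0.0034, edgeR) against Fb-Par and 3.99 (SE 0.65; adjusted p = 0.00012, edgeR) against Fb-Skn. Single libraries decided some of these calls. For Ccl4 in Fb-Epn against Fb-Par the adjusted p rose to 0.018 (log2 fold change 1.92) without Fb-Epn replicate 2, 0.012 (2.04) without Fb-Epn replicate 3 and 0.018 (1.60) without Fb-Par replicate 3. With limma on log2(TPM + 0.1) it was 0.059 (2.29). For Ccl3 in Fb-Epn against Fb-Skn it rose to 0.011 (2.13) without Fb-Epn replicate 3 and 0.011 (1.95) without Fb-Skn replicate 2. In Fb-Par against Fb-Skn neither gene passed, with -0.15 (SE 0.70; adjusted p = 0.87, edgeR) for Ccl3 and 1.95 (SE 0.79; adjusted p = 0.049, edgeR) for Ccl4. The Ccl3 value turned positive with limma on log2(TPM + 1) or log2(TPM + 0.1) and without some of the libraries.

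The Ccl3 count carries a further uncertainty. A gene annotated as antisense, AC114233.1, lies within Ccl3 on the plus strand, at chr10:70870239-70871017. Its counts were 16, 12 and 23 in Fb-Epn, 1, 6 and 1 in Fb-Par, and 4, 1 and 3 in Fb-Skn, close to those of Ccl3 in each library. Whether the counting used the strand is not given in the sources used here, and without strand the reads of these overlapping genes cannot be told apart.

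The remaining 4 members were not tested. Ccl5, which attracts T cells and monocytes, had 0 counts in all 9 libraries. A count of 0 allows up to 3 counts, or 0.244 to 0.297 CPM in a library, and this limit and the interval above cover counting error only. Ccl19, a Ccr7 ligand that guides dendritic cells and T cells to lymph nodes, had 1 count in 1 Fb-Par library and none elsewhere. Ccl17 and Ccl22 share the receptor Ccr4 on T cells. Ccl17 counts were 5, 0 and 1 in Fb-Epn, 0 in each Fb-Par library, and 2, 0 and 0 in Fb-Skn. Ccl22 counts were 0, 0 and 2, then 1, 0 and 0, then 1, 3 and 0. With 3 counts over Fb-Par as the floor, the 6 Ccl17 counts of Fb-Epn came to 1.94 times that floor per library size. Of the 6, 5 lay in 1 library and another library had 0, so no difference is read from them.

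Of the 6 members that passed the filter, Ccl2 and Ccl7 did so in every library, Ccl20 through Fb-Epn and Fb-Skn, and Ccl3, Ccl4 and Ccl11 through Fb-Epn. In Fb-Epn against Fb-Par, the 6 tested members were higher in Fb-Epn, with each adjusted p under the threshold of 0.01. Over the 13273 genes in the fit, 20.2% were higher and 18.6% lower at that threshold. All 6 were also DE genes, here those with a log2 fold change beyond 2 in addition, against 4.09% of tested genes that were DE and higher. Because 3 of the 6 could only enter by being high in Fb-Epn, the comparison of shares is open to Ccl2, Ccl7 and Ccl20 alone. Ccl4, at 2.04, was the member nearest to the fold threshold.

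In Fb-Epn against Fb-Skn, the same 6 members were again higher in Fb-Epn, with 23.0% of tested genes higher and 20.9% lower. Ccl7, Ccl11, Ccl3 and Ccl4 were DE genes, where 6.22% of tested genes were DE and higher. Of these 4 only Ccl7 did not depend on Fb-Epn to enter the test, so nothing is read from the 2 shares. Ccl2 and Ccl20 stayed under the fold threshold, at 1.69 and 0.67. The 2 comparisons share the Fb-Epn libraries and are not independent of each other.

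In Fb-Par against Fb-Skn, none of the 6 tested members was higher in Fb-Par and 3 were lower, namely Ccl2, Ccl7 and Ccl20. Of all tested genes, 23.2% were higher and 22.4% lower in Fb-Par. Ccl2 (-2.13) and Ccl20 (-8.72) were DE genes, a class that held 2.67% of tested genes in the lower direction. Ccl2 lay just past that threshold, and when edgeR tested against a log2 fold change of 2 its adjusted p was 0.12. The macrophage and pan-leukocyte markers ran the other way here, with 13 of 15 higher in Fb-Par and 1 lower. The lower one was Cd74, at -1.48 (SE 0.33; adjusted p = 0.0015, edgeR), and Cd163 was at -1.94 (SE 0.73; adjusted p = 0.034, edgeR). The median log2 fold change of all tested genes was 0.00, 0.00 and -0.01 in the 3 comparisons.

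**Figure D4:**
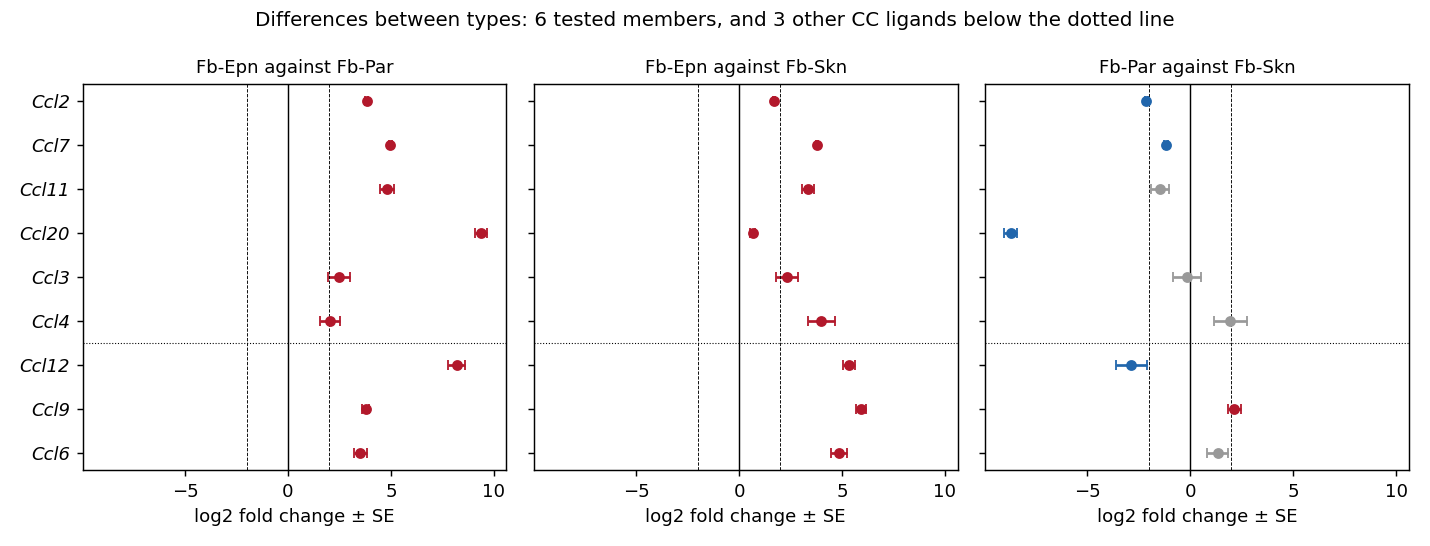
Log2 fold change ± SE (edgeR) of the 6 tested members and, under the dotted line, of 3 other CC ligands in each of the 3 comparisons, positive where the first-named type is higher. Red and blue points passed an adjusted p of 0.01 and grey ones did not; dashed lines mark 2 and -2, and Ccl20 lies at 9.39, 0.67 and -8.72.

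Position in the genome was not part of the choice of genes. Ccl2, Ccl7 and Ccl11 lie in a stretch of 126 kb on chromosome 10 together with Ccl12 and Ccl1, and no other gene is listed inside it. Each of the 4 tested genes of this stretch was higher in Fb-Epn than in both other types. Ccl11 and Ccl12 passed the filter through Fb-Epn alone, which largely set their direction. Shares of higher genes over the whole fit were 20.2% against Fb-Par and 23.0% against Fb-Skn. Only Ccl2 and Ccl7 can be set beside these shares, so no effect of the stretch as a whole is read from the 4 genes. The stretch runs from 69412017 to 69537882, and the nearest tested genes are not adjacent to it. On the left, Tmem98 ends at 68184320 and Myo1d at 68142864. Their log2 fold changes were 0.03 (adjusted p = 0.71, edgeR) and 0.34 (adjusted p = 7.4e-06, edgeR) in Fb-Epn against Fb-Par. To the right of the stretch, Tmem132e, which starts at 69737328, was at 0.43 (adjusted p = 4.9e-05, edgeR). AC095947.1, which starts at 70100661, was at -0.06 (adjusted p = 0.69, edgeR). Ccl5, Ccl3 and Ccl4 lie in a second stretch of 147 kb with Ccl6, Ccl9 and AC114233.2, which is not a chemokine gene by its name and was at 4.47 (adjusted p = 0.00023, edgeR) in the same comparison. Beside this stretch, Taf15, Ap2b1 and Slfn4 on the left had log2 fold changes of 0.03, 0.01 and 2.15, of which Slfn4 passed the threshold (adjusted p = 7.2e-05, edgeR). On the right, Wfdc18 was at 43.3 TPM in Fb-Epn, listed at 0 in Fb-Par and at 6.65 in Fb-Skn, and Heatr6 had a log2 fold change of 0.16 (adjusted p = 0.29, edgeR). Ccl17 and Ccl22 flank Cx3cl1 on chromosome 19, and Ccl19 lies between Ccl27 and Ccl21 on chromosome 5.

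Of 10 further CC ligand genes in the files, 3 passed the filter, and these were higher in Fb-Epn than in both other types. Beside them, 20.2% of all tested genes were higher than in Fb-Par and 23.0% higher than in Fb-Skn. Ccl12 and Ccl6 entered through Fb-Epn alone and Ccl9 through both nerve types, so for the first pair the direction was largely set by the filter. Ccl12, a monocyte attractant next to Ccl11, had 205, 281 and 239 counts in Fb-Epn, 0, 1 and 1 in Fb-Par, and 4, 2 and 9 in Fb-Skn. Its counts per library size in Fb-Epn were 352 times those in Fb-Par (95% interval 97.1 to 2913, exact, counting error only), and its log2 fold change was 5.34 (SE 0.30) against Fb-Skn. Like Ccl2, Ccl7 and Ccl20, it was lower in Fb-Par than in Fb-Skn, at -2.86 (SE 0.75; adjusted p = 0.0049, edgeR), though without Fb-Skn replicate 3 this was -2.12 with an adjusted p of 0.058. The call was also lost without each Fb-Par replicate, at an adjusted p of 0.010 to 0.023, with DESeq2 (0.014) and with limma on log2(TPM + 1) (0.012) or log2(FPKM + 1) (0.019). Ccl9 and Ccl6 are rodent ligands of Ccr1. Ccl9 had 190, 243 and 222 counts in Fb-Epn, 13, 14 and 19 in Fb-Par and 3 in each Fb-Skn library, which gave log2 fold changes of 3.77 (SE 0.19) and 5.92 (SE 0.24), and 2.14 (SE 0.33; adjusted p = 6.2e-05, edgeR) in Fb-Par against Fb-Skn. Ccl6 had 95, 103 and 79 counts, then 7, 8 and 8, then 6, 1 and 1, with log2 fold changes of 3.52 (SE 0.33), 4.85 (SE 0.39) and 1.32 (SE 0.52; adjusted p = 0.043, edgeR). Without Fb-Skn replicate 1 that last value was 2.59 with an adjusted p of 0.0029. Ccl9 fell in the order Fb-Epn, Fb-Par, Fb-Skn, which is the order of the summed leukocyte markers and not that of Ccl2, Ccl7 and Ccl20. Mean TPM of Ccl4 and Ccl6 had the same order as Ccl9, without a call between Fb-Par and Fb-Skn.

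Few receptors for these ligands were measured above the filter. Of 14 CC receptor and scavenger genes listed, 12 were found. Ccr2, the receptor of Ccl2 and also of Ccl7, and Ackr1 were not found by symbol, so their levels are not known here. Ccr1 and Ackr4, among the genes that passed the filter, were higher in Fb-Epn than in both other types. Ccr1 passed the filter through Fb-Epn alone. Ccr1 counts were 23, 15 and 21 in Fb-Epn, 2, 0 and 0 in Fb-Par, and 1, 0 and 1 in Fb-Skn. Its counts per library size in Fb-Epn were 28.7 times those in Fb-Par (95% interval 7.59 to 242) and 25.4 times those in Fb-Skn (6.74 to 215). Ackr4, a decoy receptor that takes up Ccl19, Ccl21 and Ccl25, stood at 25.5 ± 2.10, 9.71 ± 2.35 and 13.5 ± 0.901 TPM (Fb-Epn, Fb-Par, Fb-Skn), with log2 fold changes for Fb-Epn of 1.40 (SE 0.15) and 0.78 (SE 0.14). In Fb-Par against Fb-Skn, Ackr4 was at -0.62 (SE 0.15; adjusted p = 0.0031, edgeR), a call lost with limma on TPM and without Fb-Par replicate 1 or 2 or Fb-Skn replicate 1, at an adjusted p of 0.011 to 0.024. Ccr6, the receptor of Ccl20, and Ccr3, that of Ccl11, had 0 counts in every library, and Ccr4 and Ccr7 had at most 2.

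The other chemokine class followed the CC ligands in part. Of 13 CXC and CX3C ligands, 7 were tested, and 5 were higher and 2 lower in Fb-Epn against Fb-Par (median log2 fold change 4.11), with 6 higher and none lower against Fb-Skn (median 2.83). Cxcl6, Cxcl13 and Cxcl14 passed the filter through Fb-Epn alone, so these counts and medians lean towards Fb-Epn. Shares over all tested genes were 20.2% higher and 18.6% lower against Fb-Par, and 23.0% and 20.9% against Fb-Skn. Cxcl12, which holds Cxcr4-bearing cells in tissues, was at 311 ± 8.31 TPM in Fb-Epn against 18.2 ± 1.96 in Fb-Par and 11.1 ± 1.44 in Fb-Skn. Cxcl14 had log2 fold changes of 4.72 (SE 0.28) and 7.96 (SE 0.41). Cxcl13 and Cxcl6 had no count in Fb-Par. With 3 counts over that type as the floor and the Fb-Epn counts taken as exact, Fb-Epn was at least 30.1-fold and at least 27.5-fold higher. The neutrophil attractant Cxcl1 had log2 fold changes of 1.41 (SE 0.19) and 0.85 (SE 0.18). Cx3cl1 and Cxcl16 went the other way against Fb-Par. Cx3cl1 was a DE gene there, at -2.74 (SE 0.46; adjusted p = 0.00018, edgeR), and it did not pass against Fb-Skn (adjusted p = 0.024, edgeR). It passed the filter through Fb-Par and Fb-Skn and not through Fb-Epn (5, 1 and 8 counts), so its values lean away from Fb-Epn. Cxcl16 was at -0.69 (SE 0.092), and was higher than in Fb-Skn by 2.33 (SE 0.12).

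**Figure D5:**
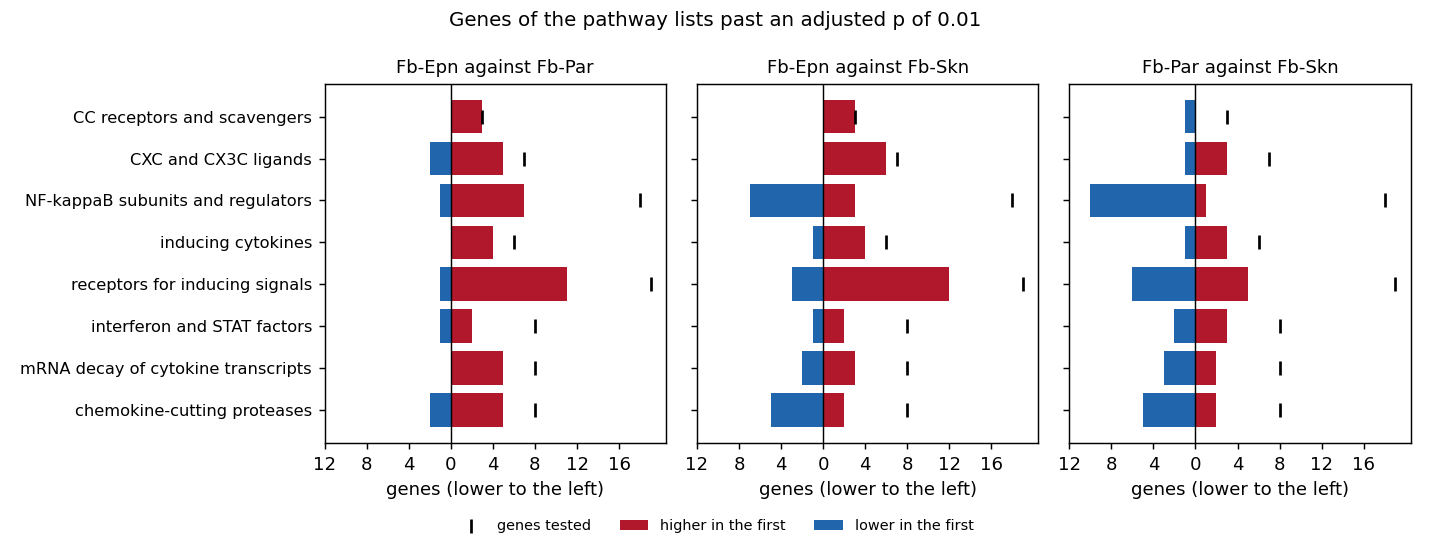
Number of genes of 8 lists higher (red, to the right) or lower (blue, to the left) in the first-named type at an adjusted p of 0.01, with a black tick at the number tested, for each of the 3 comparisons. In the NF-kappaB list 7 of 18 genes were higher and 1 lower in Fb-Epn against Fb-Par, and 1 was higher and 10 lower in Fb-Par against Fb-Skn. The shares over all tested genes there were 20.2% higher and 18.6% lower, and 23.2% and 22.4%.

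All 18 genes for NF-kappaB subunits and regulators were tested. In Fb-Epn against Fb-Par, 7 were higher and 1 lower (median 0.36), with 20.2% and 18.6% over all tested genes. In Fb-Epn against Fb-Skn, 3 were higher and 7 lower (median -0.24), with 23.0% and 20.9% over all. In Fb-Par against Fb-Skn, 1 was higher and 10 lower (median -0.81), with 23.2% and 22.4% over all. The largest change for Fb-Epn among the genes named by rule was in Nfkbiz, which encodes a nuclear cofactor of NF-kappaB, at 58.0 ± 3.52 TPM in Fb-Epn against 8.38 ± 1.17 in Fb-Par and 10.8 ± 0.451 in Fb-Skn. Its log2 fold changes were 2.80 (SE 0.086) and 2.28 (SE 0.084). Bcl3, another nuclear cofactor, followed at 1.71 (SE 0.13) and 0.91 (SE 0.12). The log2 fold changes of the other genes named were smaller in Fb-Epn against Fb-Par or of opposite sign, with 0.47 (SE 0.052) for Tnip1, 0.34 (SE 0.062) for Nfkb2 and -0.81 (SE 0.097) for Ikbkg. In Fb-Epn against Fb-Skn, Tnip1 and Nfkb2 were lower in Fb-Epn, at -0.70 (SE 0.050) and -0.55 (SE 0.060). The inhibitor Nfkbia was lower in Fb-Epn than in Fb-Skn, at a log2 fold change of -1.31 (SE 0.12).

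Of 15 cytokines that induce CC ligands, 6 were tested, and 4 were higher and none lower in Fb-Epn against Fb-Par (median 0.92, or 0.62 with a gene at 0 counts in Fb-Par at its bound), with 4 higher and 1 lower against Fb-Skn (median 2.07). Shares over all tested genes were 20.2% higher and 18.6% lower against Fb-Par, and 23.0% and 20.9% against Fb-Skn. Tnf and Il1b did not pass the filter, with at most 1 and 4 counts per library. Il33 was at 275 ± 5.90 TPM in Fb-Epn against 240 ± 7.22 in Fb-Par and 30.7 ± 3.61 in Fb-Skn. Lif had log2 fold changes of 1.30 (SE 0.068) and 1.70 (SE 0.071), Il6 of 0.54 (SE 0.13) and 2.44 (SE 0.15), and Il18, which passed the filter through Fb-Epn alone, of 2.84 (SE 0.42) and 3.99 (SE 0.50). Il1a, which like Ccl20 was higher in Fb-Skn than in Fb-Par, had no count in Fb-Par and was at 0.260 ± 0.239 TPM in Fb-Epn and 7.51 ± 0.674 in Fb-Skn. Fb-Skn was at least 54.1-fold above Fb-Par in Il1a, with the Fb-Skn counts taken as exact. Fb-Epn was below Fb-Skn with a log2 fold change of -4.95 (SE 0.51). Il1a passed the filter through Fb-Skn alone, so its direction against Fb-Skn was largely set by the filter. In level, Ccl20 and Il1a differed in Fb-Epn, where Ccl20 was highest and Il1a low.

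All 19 genes for receptors of such signals were tested. In Fb-Epn against Fb-Par, 11 were higher and 1 lower (median 0.52), with 20.2% and 18.6% over all tested genes. Against Fb-Skn, 12 were higher and 3 lower (median 0.66), with 23.0% and 20.9% over all. The receptor of interleukin 33, Il1rl1, was at 2260 ± 28.2 TPM in Fb-Epn against 290 ± 6.10 in Fb-Par and 114 ± 2.39 in Fb-Skn. Il1rn, an antagonist of interleukin 1 that sits in this list, had log2 fold changes of 4.00 (SE 0.074) and 7.45 (SE 0.11). Il4r, a chain of the receptors of interleukins 4 and 13, was at 108 ± 1.78, 17.0 ± 0.725 and 34.5 ± 1.89 TPM in the 3 types, and Il4 and Il13 had 0 counts in every library. Tnfrsf1b had log2 fold changes of 2.85 (SE 0.13) and 2.12 (SE 0.12), Il1r1 of 0.84 (SE 0.056) and 0.89 (SE 0.056), and Il6r of 1.12 (SE 0.17) and 2.65 (SE 0.20).

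The last 3 lists are given as log2 fold changes, first of Fb-Epn against Fb-Par and then against Fb-Skn where both are given. Over all tested genes, 20.2% were higher and 18.6% lower against Fb-Par, and 23.0% and 20.9% against Fb-Skn. Of 8 interferon and STAT factors, 2 were higher and 1 lower in Fb-Epn in each comparison (medians -0.04 and 0.15), with Stat3 at 0.45 (SE 0.030) and 0.50 (SE 0.030), Irf7 at -1.16 (SE 0.27) against Fb-Par, and Irf3 at -0.89 (SE 0.068) and Stat6 at 0.41 (SE 0.037) against Fb-Skn. Of 8 genes acting on the decay of cytokine mRNA, 5 were higher and none lower against Fb-Par (median 0.41), and 3 were higher and 2 lower against Fb-Skn (median 0.20). Zfp36l1, which binds AU-rich elements, led with 1.49 (SE 0.046) and -0.58 (SE 0.043), and Zfp36, Hnrnpd, Zc3h12a and Khsrp lay between 0.25 and 0.75 against Fb-Par or between -0.84 and 0.65 against Fb-Skn. Rc3h1 was at 0.39 (SE 0.082) against Fb-Skn. Of 8 proteases that cut chemokines and their inhibitors, 5 were higher and 2 lower against Fb-Par (median 0.93), and 2 were higher and 5 lower against Fb-Skn (median -0.18). Mmp2, whose product truncates Ccl7, was at 1516 ± 7.13 TPM in Fb-Epn against 915 ± 14.4 in Fb-Par and 1529 ± 13.0 in Fb-Skn. Mme differed by 2.74 (SE 0.11) and -1.28 (SE 0.083), and Mmp9 by 3.19 (SE 0.24) against Fb-Par. Mmp3 was lower than in Fb-Skn, at -4.36 (SE 0.33), but it passed the filter through Fb-Skn alone, which largely set that direction. The inhibitors Timp1 and Timp2 were at 1.11 (SE 0.029) and -0.14 (SE 0.023) against Fb-Par.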

How the data were processed

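RNA of 9 libraries was analysed, grouped by the sample labels into types of 3. The authors made directional poly(A) libraries and sequenced paired ends of 150 bp. The submitters' processing notes name Trimmomatic 0.38, HISAT2 2.1.0, FastQC 0.11.7, featureCounts 1.6.3 and rn6. The annotation release, the handling of strand and of reads that match several family members are not given in the sources used here. The deposited tables hold raw counts, TPM and FPKM of 32883 genes, all made by the authors, with 1 column per library.

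Counts were fitted with edgeR 4.0.16 in R 4.3.3 (TMM, factors 0.955 to 1.03, filterByExpr, quasi-likelihood F test), in 1 model of 9 libraries with 3 contrasts. P-values were adjusted by Benjamini-Hochberg over 13273 genes, and genes were called at an adjusted p under 0.01. For DE genes, the log2 fold change had to lie beyond 2 or -2 as well. The study's methods give such thresholds without naming an adjustment of the p-value. The spread within types, as edgeR's common coefficient of variation, was 8.25%. Libraries of a type differed beyond counting noise (chi-square per degree of freedom 3.18 to 5.45). The fit was tested on simulated counts with known changes.

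The genes and lists were chosen with earlier results of these data known. All members, every tested gene of the other CC ligands and CC receptors, and in each other list the 4 called genes with the smallest adjusted p in Fb-Epn against Fb-Par and up to 2 more in Fb-Epn against Fb-Skn were named, apart from genes not reported here. The neighbouring genes, AC114233.1, AC114233.2, Cd74, Cd163, Cd2, Kit, Cdh5, Tek, Itgax and Cd83 were chosen after their values were seen. So were Xcr1, Clec9a, Il4, Il13, Cx3cl1, Tnf, Il1b and the receptors at 0. Alternatives used DESeq2 1.42.0 and limma 3.58.1. The limma fit on deposited FPKM was added after the data were seen. Promoters are from RefSeq (GRCr8), whose coordinates were not mixed with those of rn6.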

Additional observations from a re-analysis of the deposited data

How the results depend on the processing

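With a minimum of 10 counts in every library, only Ccl2 and Ccl7 were left to test. The called members were therefore 2 in Fb-Epn against Fb-Par and 2 in Fb-Epn against Fb-Skn. Of all genes tested under that minimum, 39.2% and 43.3% were called. The DE members were 2, 1 and 1 in the 3 comparisons. Against a log2 fold change of 2, edgeR called 4 members in Fb-Epn against Fb-Par, without Ccl3 and Ccl4 (adjusted p = 1). It called 2 in Fb-Epn against Fb-Skn and 1 in Fb-Par against Fb-Skn. These were also its numbers of DE members. Over all tested genes, 2.58%, 4.77% and 4.42% were called in the 3 comparisons. At an adjusted p under 0.05, 5 members were called in Fb-Par against Fb-Skn, where 57.1% of all tested genes were. With limma on log2(TPM + 1), log2(TPM + 0.1) and log2(FPKM + 1), 1 member was a DE gene in that comparison, and 4, 5 and 4 were in Fb-Epn against Fb-Par. Leaving out each library gave 5 to 6, 5 to 6 and 3 to 4 called members. Over all tested genes, 32.9% to 38.6%, 38.3% to 43.1% and 39.7% to 44.3% were called with a library left out. The Ccl3 value in Fb-Par against Fb-Skn was 0.0091 and 0.041 with limma on log2(TPM + 1) and log2(TPM + 0.1), and -0.90 to 0.20 with a library left out. That of Ccr1 was then -2.75 to 0.35, and that of Irf7 in Fb-Epn against Fb-Skn -0.15 to 0.40, and none of these passed the threshold. The cause of these changes was not tested except where fewer genes were tested.

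Libraries of equal replicate number did not deviate together (correlation of deviations -0.080 to 0.020, and -0.045 to 0.089 for unequal numbers). Because the spread within types may be technical, this cannot show whether libraries of the nerve types share a rat. The model with the replicate block called 6, 6 and 3 members, as without it, beside 36.6%, 42.0% and 43.7% of all tested genes. The only call among named genes to change was Mmp3 in Fb-Epn against Fb-Par (adjusted p = 0.012, edgeR). Ccl3, Ccl4 and the 4 untested members are limited by depth.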
